A study of Homo sapiens with 8 samples.

Results

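The genes described here are 10 components of the Wnt and beta-catenin pathway, namely CTNNB1, AXIN2, LEF1, TCF7, TCF7L2, RNF43, ZNRF3, DKK1, LGR4 and NKD1. They were taken by name, and each was followed through every probe set whose only gene symbol in the platform annotation is that gene. This gave 26 probe sets for 9 of the 10 genes, out of 54613 probe sets and 19775 genes with a symbol of their own on the array. TCF7 was not analysed here. mRNA was profiled on 8 Affymetrix Human Genome U133 Plus 2.0 arrays. By FACS, side population cells (SP) were separated from main population cells (MP) in the human lung cancer cell lines A549, H1650, H1975 and H460, all described by the study as adenocarcinoma lines, with 1 SP and 1 MP array for each line. SP cells are those that pump out the DNA dye Hoechst, MP cells are those that keep it, and all sorted cells had been incubated with the dye and gated as viable. A549 and H460 carry mutated K-Ras, H1650 and H1975 carry mutated EGFR, and no other treatment separated the arrays.

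Canonical Wnt signaling is controlled by the stability of beta-catenin, the protein made from CTNNB1. Without a Wnt ligand a destruction complex built on APC and the Axin proteins marks beta-catenin for degradation, and when Frizzled and LRP receptors are engaged beta-catenin accumulates, enters the nucleus and activates genes together with TCF and LEF factors. Several of the activated genes, among them AXIN2, NKD1, RNF43, ZNRF3 and DKK1, encode inhibitors of the same pathway, so their mRNA is often read as its output. Beta-catenin is also a structural part of the cadherin junctions between epithelial cells, and the control of its amount is largely at the level of the protein, which these arrays do not measure.

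Each value is a log2 MAS5 signal, for which the median over all probe sets was 6.00, and a log2 ratio is the SP value minus the MP value of the same line. The 8 arrays had medians between 5.92 and 6.29, and their 3′ to 5′ differences in ACTB ranged from 0.23 to 0.65 in SP arrays and from 0.26 to 0.58 in MP arrays. ABCG2, the transporter that defines the SP phenotype, had log2 ratios of 1.08 in A549, -0.70 in H1650, 1.17 in H1975 and 0.36 in H460. Of 8 cell cycle genes, 7 had a higher signal in SP than in MP cells in A549, 0 in H1650, 8 in H1975 and 8 in H460, and their median log2 ratios were 0.49, -0.74, 0.72 and 0.23 in the same order. Summed over these 8 genes, the linear signal ranged from 20684 to 37304 in SP arrays and from 19115 to 32299 in MP arrays. The H1650 pair therefore stood apart from the other 3 pairs in these genes, and the labels were kept as deposited. Whether its SP and MP arrays were exchanged cannot be told from these arrays. Of the 5 epithelial markers, KRT8, KRT18 and KRT19 were bright in all 4 lines, while in H460 EPCAM had 5.97 in SP and 5.25 in MP cells, and CDH1, which encodes E-cadherin, had 1.61 and 0.63 in SP and MP cells. Of markers of other cell types, 2 of 3 leukocyte genes averaged below the median (PTPRC 3.89 and CD3E 5.40) and CD14 averaged 8.18, 2 of 3 endothelial genes averaged below it and PECAM1 averaged 7.26, and all 4 fibroblast genes averaged above it, with COL1A1 at 10.31. Their part in the results was not tested.

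No Wnt pathway member was called different in mRNA level between SP and MP cells across the 4 lines, and neither was any other probe set. The limma test over all 54613 probe sets called 0 of the 26 member probe sets at an adjusted p of 0.05, and it called 0% of all probe sets. ABCG2 was not called either (limma adjusted p = 0.961). The absence of calls is therefore not particular to the members, and it does not show that their levels were equal. At an unadjusted p under 0.05, 1 of the 26 member probe sets and 2136 of all 54613 passed. That one was a TCF7L2 probe set described below. Nothing in the sources says that both arrays of 1 line came from separate cultures, so p-values measure only the spread left between these arrays. Each array averages over many sorted cells, so a difference in a few cells and a smaller one in every cell cannot be told apart.

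CTNNB1, the gene for beta-catenin itself, is read by 3 probe sets, and these did not give 1 answer. The brightest, 201533_at, had log2 signals of 12.74 in SP and 12.68 in MP cells of A549, 12.77 in SP and 12.78 in MP cells of H1650, 12.40 in SP and 12.36 in MP cells of H1975, and 12.10 in SP and 12.20 in MP cells of H460. By this probe set SP and MP cells were nearly equal in every line, and the log2 ratio averaged 0.00 ± 0.072 (SD over 4 lines). The second, 1554411_at, had 9.11 in SP and 9.46 in MP cells of A549, 8.74 and 8.77 in SP and MP cells of H1650, 8.16 and 7.88 in SP and MP cells of H1975, and 7.79 and 8.06 in SP and MP cells of H460. Its mean log2 ratio was -0.09 ± 0.29, with SP above MP in 1 of the 4 lines.

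The third CTNNB1 probe set, 223679_at, had log2 signals of 7.24 in SP and 6.44 in MP cells of A549, 6.36 and 7.41 in SP and MP cells of H1650, 7.41 and 6.61 in SP and MP cells of H1975, and 7.79 and 6.31 in SP and MP cells of H460. SP was above MP in A549, H1975 and H460 and below it in H1650, which was also the pattern of ABCG2 and of the cell cycle genes given above. Whether the SP and MP differences of this probe set and of those genes have a common source was not tested. Its mean log2 ratio was 0.51 ± 1.09 (SD, n = 4 lines; limma adjusted p = 0.961). Without H1650 the mean was 1.03 with a standard error of 0.26, and the adjusted p was 0.303, so it did not pass in 3 lines either.

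The disagreement between the CTNNB1 probe sets was measured as the range of their log2 ratios. It was 1.14 in A549, 1.05 in H1650, 0.76 in H1975 and 1.75 in H460, and 0.60 for the means over the lines. Leaving out 1 line at a time moved the last value to between 0.21 (without H460) and 1.14 (without H1650). In H1650 all 3 ratios were negative, although that of 201533_at was -0.0028, and in H1975 all 3 were positive, whereas in A549 and H460 the signs were mixed. The exact two-sided sign-flip permutation test of the 3 pairs of probe sets gave p = 0.625 for 201533_at minus 1554411_at, p = 0.5 for 201533_at minus 223679_at and p = 0.375 for 1554411_at minus 223679_at (each 0.625 after adjustment over the 3 pairs), and with 4 lines this test cannot reach 0.05. Among 2780 genes with 3 probe sets the median of this range was 0.45, and 39.1% of them had a larger range than CTNNB1. Over the 8 arrays the signals of 201533_at and 1554411_at had a Pearson r of 0.85, and those of 223679_at had an r of -0.18 with 201533_at and -0.24 with 1554411_at. These correlations describe 8 arrays of 4 lines, in which 2 arrays share each line.

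**Figure D1:**
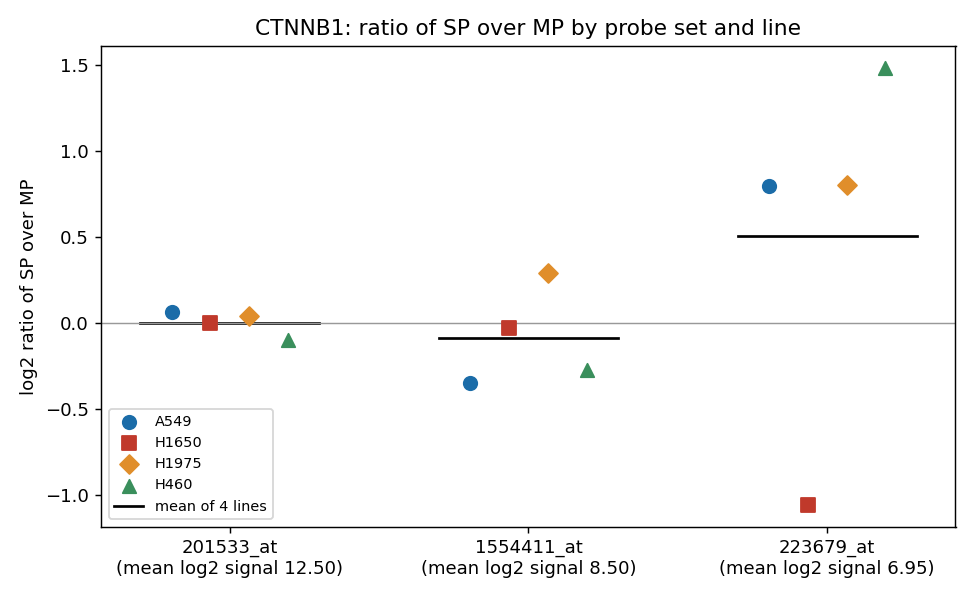
Log2 ratio of SP over MP (vertical axis) for the 3 CTNNB1 probe sets (horizontal axis, with their mean log2 signal), 1 point for each of the 4 lines and a black bar for the mean. The points of 201533_at lie between -0.10 and 0.06, while those of 223679_at lie between -1.06 in H1650 and 1.48 in H460.

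TCF7L2 and LEF1 encode DNA-binding partners of beta-catenin. TCF7L2 was above the median of all probe sets on every array at its brightest probe set, and LEF1 was below it on every array. For the brightest of the 7 TCF7L2 probe sets, 212761_at, the log2 signals were 12.12 in SP and 11.89 in MP cells of A549, 12.27 and 12.31 in SP and MP cells of H1650, 12.02 and 11.81 in SP and MP cells of H1975, and 11.60 in both SP and MP cells of H460. All 7 TCF7L2 probe sets had a mean log2 ratio above 0, from 0.03 to 0.53, and probe sets of 1 gene share its transcripts and are not separate measurements. The largest departure relative to its spread was that of 212762_s_at, with log2 ratios of 0.08 in A549, 0.16 in H1650, 0.66 in H1975 and 0.50 in H460. SP was above MP in 4 of 4 lines, with a mean of 0.35 ± 0.28, an unadjusted limma p of 0.024 and an adjusted p of 0.961. Over 171 genes with 7 probe sets the median range of mean ratios between probe sets was 0.99, and for TCF7L2 it was 0.51.

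For LEF1, the brightest of its 3 probe sets, 221557_s_at, had log2 signals of 3.80 in SP and 4.78 in MP cells of A549, 2.57 and 3.91 in SP and MP cells of H1650, 2.83 and 3.30 in SP and MP cells of H1975, and 4.36 and 4.21 in SP and MP cells of H460. The largest ratios came from another probe set, 221558_s_at, with 0.88 in SP and 1.08 in MP cells of A549, 5.91 and 2.92 in SP and MP cells of H1650, 1.58 and 1.57 in SP and MP cells of H1975, and 3.91 and 1.61 in SP and MP cells of H460. All of these values lay below the median of all probe sets, and the ratios of 2.99 in H1650 and 2.30 in H460 were therefore between faint signals. The mean log2 ratios of the 3 LEF1 probe sets spanned 1.93, a larger span than in all but 3.45% of the genes with 3 probe sets. None of the 3 passed the test of SP against MP.

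LGR4, RNF43 and ZNRF3 set the amount of Wnt receptor at the cell surface. RNF43 and ZNRF3 are ubiquitin ligases that remove Frizzled, and LGR4 is a receptor for R-spondins, which take these ligases out of action. LGR4 had log2 signals at 218326_s_at of 11.68 in SP and 11.77 in MP cells of A549, 10.82 and 11.18 in SP and MP cells of H1650, 11.02 and 10.77 in SP and MP cells of H1975, and 11.41 and 11.37 in SP and MP cells of H460. Its mean log2 ratio was -0.04 ± 0.26 and its other 2 probe sets were dim, with means of 2.82 and 1.82. ZNRF3, read by 226360_at alone, had 10.83 in SP and 10.99 in MP cells of A549, 9.38 and 9.61 in SP and MP cells of H1650, 10.22 and 9.86 in SP and MP cells of H1975, and 9.14 and 8.72 in SP and MP cells of H460. SP was below MP in A549 and H1650 and above it in H1975 and H460, with a mean of 0.10 ± 0.34.

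RNF43 was bright in 3 lines and faint in H460. Its only probe set, 218704_at, had log2 signals of 8.46 in SP and 8.22 in MP cells of A549, 7.09 and 7.78 in SP and MP cells of H1650, 8.13 in both SP and MP cells of H1975, and 4.94 and 2.11 in SP and MP cells of H460. The mean log2 ratio of 0.60 ± 1.54 rested on H460, where the ratio was 2.83 between faint signals (limma adjusted p = 0.961). With every linear signal below 32 set to 32 the ratio of this line disappears, since both of its arrays are below that value.

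AXIN2, NKD1 and DKK1 encode inhibitors that are also textbook targets of the pathway. AXIN2 is a scaffold of the destruction complex. At its brightest probe set, 222696_at, the log2 signals were 9.83 in SP and 8.67 in MP cells of A549, 2.16 and 5.09 in SP and MP cells of H1650, 5.37 and 6.30 in SP and MP cells of H1975, and 7.17 and 6.99 in SP and MP cells of H460. SP was above MP in A549 and H460 and below it in H1650 and H1975. The mean log2 ratio was -0.63 ± 1.75 (limma adjusted p = 0.961), and it was 0.08 with the floor of 32 on the linear signal. The other 3 AXIN2 probe sets, whose signals averaged 5.25, 3.58 and 2.86, had SP to MP log2 ratios that averaged 0.25, -0.30 and 0.21, and in no line did the 4 probe sets share a direction.

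NKD1 encodes an inhibitor that binds Dishevelled, and its 3 probe sets averaged 4.37, 4.33 and 3.50, below the median. The one value above the median was that of 229481_at in SP cells of H1650, 6.48 against 4.57 in MP cells, a log2 ratio of 1.91. At 232203_at the log2 signals were 3.64 in SP and 4.48 in MP cells of A549, 4.51 and 5.06 in SP and MP cells of H1650, 4.92 and 4.90 in SP and MP cells of H1975, and 3.04 and 4.40 in SP and MP cells of H460. The mean log2 ratio was -0.68 ± 0.58, with SP above MP in 1 of 4 lines (limma adjusted p = 0.961).

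DKK1 encodes a secreted protein that blocks the LRP co-receptors, and it was above the median on all 8 arrays. Its probe set 204602_at had log2 signals of 13.75 in SP and 13.60 in MP cells of A549, 9.57 and 10.76 in SP and MP cells of H1650, 12.83 and 11.98 in SP and MP cells of H1975, and 11.62 and 12.29 in SP and MP cells of H460. SP was above MP in A549 and H1975 and below it in H1650 and H460, and the mean log2 ratio was -0.22 ± 0.90 (limma adjusted p = 0.963). To show what the promoter of a bright pathway target looks like beside that of CTNNB1, the RefSeq sequence of the 250 bases before the annotated start is given for both, from build GRCh38.p14. DKK1 lies on the plus strand and its window is chr10:52314031-52314280. CTNNB1 also lies on the plus strand and its window is chr3:41199255-41199504. Capitals mark matches, on either strand, to the core of the TCF and LEF binding motif, searched as CTTTG followed by either A or T at each of the next 2 positions.
DKK1: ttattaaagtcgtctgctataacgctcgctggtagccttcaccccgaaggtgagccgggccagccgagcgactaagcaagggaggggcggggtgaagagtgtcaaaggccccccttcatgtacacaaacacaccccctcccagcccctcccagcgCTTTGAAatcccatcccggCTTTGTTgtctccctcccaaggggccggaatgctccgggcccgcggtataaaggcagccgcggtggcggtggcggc
CTNNB1: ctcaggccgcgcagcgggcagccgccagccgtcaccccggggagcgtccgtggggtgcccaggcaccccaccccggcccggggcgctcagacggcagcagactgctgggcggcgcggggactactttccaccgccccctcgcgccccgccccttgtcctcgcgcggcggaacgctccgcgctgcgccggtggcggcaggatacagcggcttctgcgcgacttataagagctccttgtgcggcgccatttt
The DKK1 window held 2 matches, which began 95 and 76 bases before the start, and the CTNNB1 window held 0. Of 35116 windows of this length over all genes, 12.0% held at least 1 match and 1.21% held 2 or more. Windows were matched by symbol for 7 of the 10 genes, and 3 of their 11 windows held a match. A match describes the letters only and says nothing of binding in these cells.

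**Figure D2:**
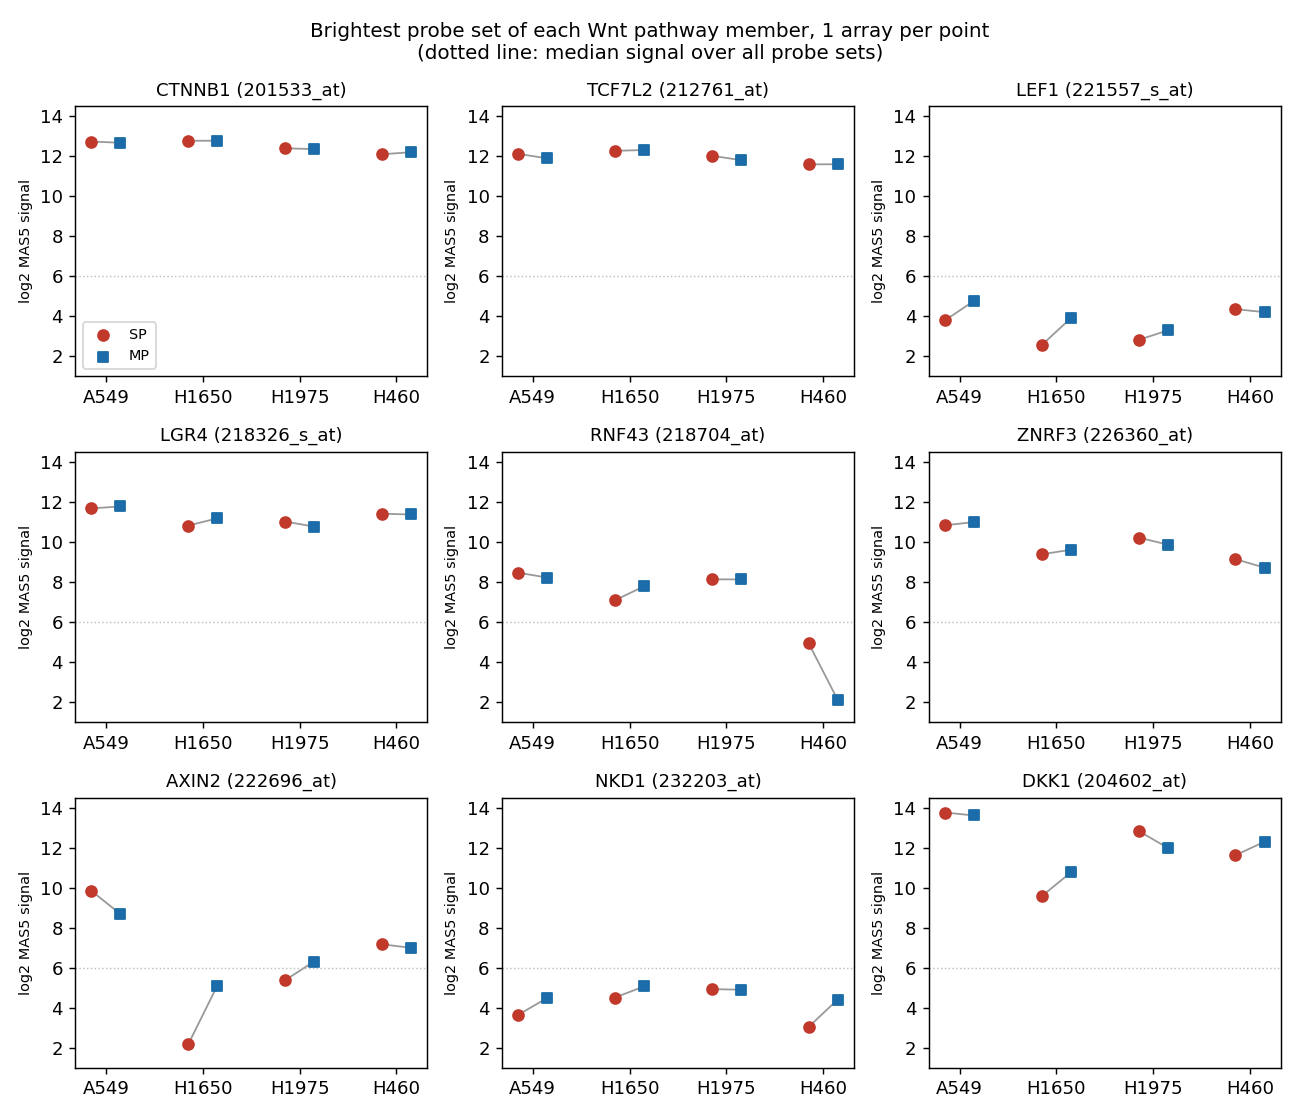
Log2 MAS5 signal (vertical axis) of the brightest probe set of each of the 9 measured members, in SP (circles) and MP (squares) cells of each line (horizontal axis), with 1 array per point and a dotted line at the median of all probe sets, 6.00. CTNNB1, TCF7L2, LGR4, ZNRF3 and DKK1 lie above the median on all 8 arrays, LEF1 and NKD1 lie below it on all 8, and RNF43 lies below it only in H460.

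Across the members, as over all probe sets, the size of the SP to MP ratio went with the brightness of the probe set. Of the 40 ratios from 10 member probe sets with a mean log2 signal of 8 or more, 1 was 2-fold or larger, that of DKK1 in H1650. Of the 64 ratios from the 16 dimmer member probe sets, 18 were. The boundary of 8 was chosen after the values were seen. Over all probe sets the shares were similar, 1.9% above and 29.1% below the boundary, so the members did not stand apart from the array here. The median SD of the ratios over the 4 lines was 0.27 for the brighter and 0.85 for the dimmer member probe sets. The median log2 ratio of the 26 member probe sets was 0.19 in A549, -0.11 in H1650, 0.04 in H1975 and 0.16 in H460, against 0.08, -0.01, -0.08 and -0.03 for all probe sets.

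**Figure D3:**
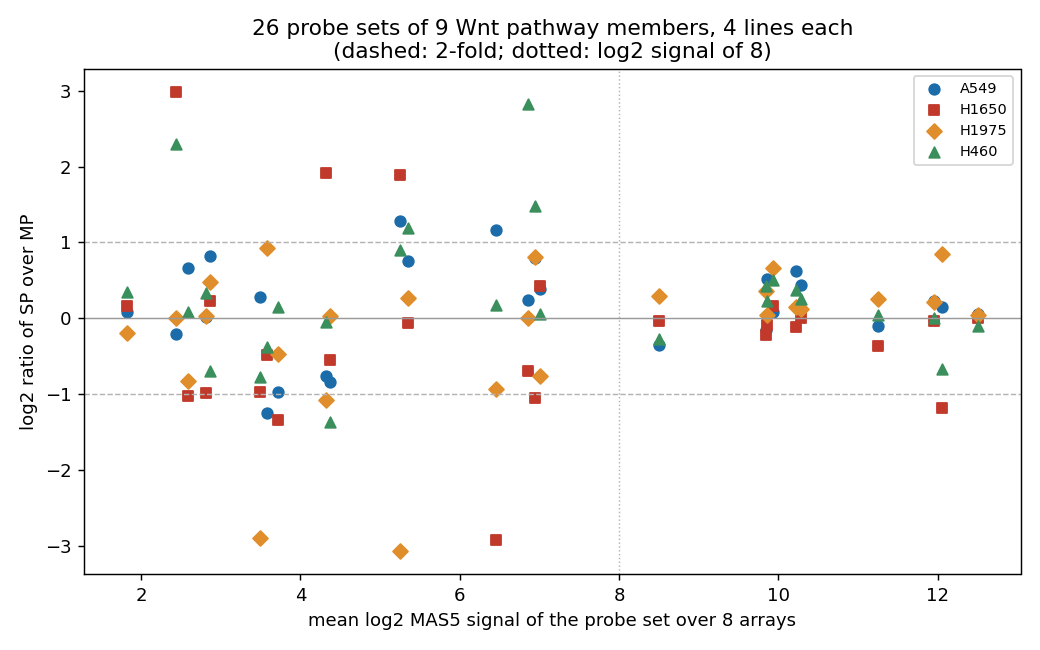
Log2 ratio of SP over MP (vertical axis) against the mean log2 MAS5 signal of the probe set over 8 arrays (horizontal axis) for 26 member probe sets in 4 lines, with dashed lines at 2-fold and a dotted line at a log2 signal of 8. Right of the dotted line 1 of 40 points lies beyond 2-fold, and left of it 18 of 64 do.

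In 7 of the 26 member probe sets the sign of the ratio in H1650 alone was opposite to that in the other 3 lines, against 6 for H1975, 2 for A549 and 2 for H460, and the difference between these counts was not tested. No share over all probe sets stands beside these counts, so they do not show that the members are unusual. A total of 6 of the 26 member probe sets had SP above MP in A549, H1975 and H460 and below it in H1650, namely CTNNB1 223679_at, RNF43 218704_at, LGR4 222596_s_at and the TCF7L2 probe sets 216037_x_at, 216511_s_at and 236094_at. Over all probe sets 9.56% had this pattern. When the ratio of 1 line was set against the mean of the other 3, limma called 0 of the 26 for H1650, and likewise 0 for A549, H1975 and H460, with 0% of all probe sets called in each. At an unadjusted p under 0.05 the members that passed numbered 3 for H1650, 0 for A549, 2 for H1975 and 1 for H460, and over all 54613 probe sets the numbers were 4631, 2657, 2879 and 2144 in the same order. The members that passed for H1650 were CTNNB1 223679_at with a difference in log2 ratio of -2.08 (limma adjusted p = 0.309), AXIN2 222696_at with -3.06 (limma adjusted p = 0.363) and DKK1 204602_at with -1.29 (limma adjusted p = 0.543). The direction of these differences rests on the SP and MP labels of H1650, in which ABCG2 and the cell cycle genes run opposite to the other lines. The size of the AXIN2 difference also rests on faint H1650 signals, 2.16 in SP and 5.09 in MP cells. With the floor on the linear signal the AXIN2 difference was -0.22, while those of CTNNB1 223679_at and DKK1 stayed at -2.08 and -1.29.

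The cell lines differed from each other in 7 of the 9 measured members. By the limma F test over the 4 lines 12 of the 26 member probe sets were called, while 40.5% of all probe sets were called. All 12 had a mean signal at or above the median. Among all probe sets at or above it, fitted on their own, 69.5% were called, and in that fit 12 of the 14 member probe sets were. A gene can enter that set through the line in which it is high. The called members were 2 probe sets of CTNNB1, 5 of TCF7L2 and 1 each of LGR4, RNF43, ZNRF3, AXIN2 and DKK1, and no probe set of LEF1 or NKD1 was called. Taking only the brightest probe set of each gene, 7 of 9 members (77.8%) were called, against 51.7% of all 19775 genes. This comparison was not matched for signal. LEF1 and NKD1, which were not called, were the members whose brightest probe set averaged below the median. When the variance was fitted without its trend on signal, 4 remained of the 12, namely CTNNB1 1554411_at, RNF43, ZNRF3 and DKK1.

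H460 had the lowest level in 9 of the 12 called member probe sets, H1650 in 2, H1975 in 1 and A549 in 0. A549 was the highest in 6 and H1650 in the other 6. Among all 22102 called probe sets H460 was the lowest in 29.6%. Of the 9 lowest in H460, 5 read TCF7L2 and 2 read CTNNB1, so that with RNF43 and ZNRF3 they stand for 4 genes. Of the 6 pairs of lines, the numbers of member probe sets called out of 26, each with the share of all probe sets called, were 9 for A549 against H460 (17.1%), 10 for H1650 against H460 (26.4%), 6 for H1975 against H460 (25.5%), 5 for A549 against H1650 (21.9%), 4 for A549 against H1975 (24.3%) and 3 for H1650 against H1975 (22.3%). In all 9, 8 of the 10 and all 6 of the pairs with H460 in that order, the other line was higher. The total over the pairs was 37, against 21 without the H460 SP array and 20 without the H460 MP array.

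Beta-catenin mRNA itself differed between lines in 2 of its 3 probe sets. The mean log2 signal of CTNNB1 201533_at was 12.71 in A549, 12.78 in H1650, 12.38 in H1975 and 12.15 in H460, a range of 0.62 or 1.54-fold (F test adjusted p = 0.00424). In order from the highest, H1650 and A549 did not differ beyond the spread (adjusted p = 0.710), nor did A549 and H1975 (adjusted p = 0.0517) or H1975 and H460 (adjusted p = 0.154), whereas H1650 was above H1975 (adjusted p = 0.0259), and A549 and H1650 were above H460 (adjusted p = 0.00748 and 0.00260). The second probe set, 1554411_at, had a similar order, with 9.29, 8.76, 8.02 and 7.93 in A549, H1650, H1975 and H460 and a range of 2.57-fold (adjusted p = 0.00349). The third, 223679_at, had line means between 6.84 and 7.05 and was not called (adjusted p = 0.982).

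TCF7L2 was lowest in H460 in 6 of its 7 probe sets. The line means of 212761_at were 12.01 in A549, 12.29 in H1650, 11.92 in H1975 and 11.60 in H460 (F test adjusted p = 0.0104), and of the neighbours in this order none differed beyond the spread, the only called pair being H1650 against H460 (adjusted p = 0.00334). In the other 4 called TCF7L2 probe sets H460 was below each of the other 3 lines, with ranges from 1.06 to 1.30 on the log2 scale. The call of 212761_at was lost without either H460 array, with adjusted p-values of 0.0922 (without SP) and 0.0548 (without MP). That of 216037_x_at was lost too, with 0.0608 and 0.102, and that of 216511_s_at without the MP array, with 0.0607.

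Of the regulators of the receptors, ZNRF3 had line means of 10.91 in A549, 9.50 in H1650, 10.04 in H1975 and 8.93 in H460 and a range of 3.96-fold (F test adjusted p = 0.000529). A549 was above the other 3 lines and H1975 was above H460, while H1975 and H1650 (adjusted p = 0.0944) and H1650 and H460 (adjusted p = 0.0728) were not told apart. RNF43 had 8.34 in A549, 7.44 in H1650, 8.13 in H1975 and 3.52 in H460 (adjusted p = 0.00259), and H460 was below each of the other lines while these 3 did not differ beyond the spread. The range of 4.82 on the log2 scale includes the faint H460 arrays and was 3.34 with the floor of 32. LGR4 ran in another order. Its line means were 11.72 in A549, 11.39 in H460 and 10.89 in H1975, close to which lay H1650 (F test adjusted p = 0.00962). A549 was above H1650 by 0.73 (adjusted p = 0.0123) and above H1975 by 0.83 (adjusted p = 0.00589). Its call was lost without the A549 MP array (adjusted p = 0.0622).

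AXIN2 and DKK1 both had their highest line mean in A549 and their lowest in H1650. AXIN2 at 222696_at had line means of 9.25 in A549, 3.63 in H1650, 5.84 in H1975 and 7.08 in H460 (F test adjusted p = 0.00414). The range was 5.63 on the log2 scale, or 4.21 with the floor of 32, which raises the H1650 values. A549 was above H1650 (adjusted p = 0.00195) and H1975 (adjusted p = 0.0180), H1650 was below H460 (adjusted p = 0.0158), and the neighbours A549 and H460, H460 and H1975, and H1975 and H1650 were not told apart. DKK1 had 13.68 in A549, 10.17 in H1650, 12.41 in H1975 and 11.95 in H460, a range of 11.4-fold (adjusted p = 0.00116). H1650 was below each of the other 3 lines and A549 was above H460 (adjusted p = 0.0207), whereas A549 and H1975 (adjusted p = 0.0525) were not told apart and H1975 and H460 did not differ beyond the spread (adjusted p = 0.480). With the floor of 32 the DKK1 call over the 4 lines was lost (adjusted p = 0.0591), as were those of LGR4 and TCF7L2 216037_x_at. The floor changed none of the signals of these probe sets themselves. For LEF1 1 pair of lines was called, at the faint probe set 221558_s_at, with A549 below H1650 by 3.43 on the log2 scale (adjusted p = 0.0464), a range that shrinks to 0.45 with the floor.

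The genes whose signals followed CTNNB1 201533_at most closely over the 8 arrays were ZNF146 (Pearson r = 0.994), ITGA3 (0.990) and EPB41L1 (0.990), searched among the brightest probe sets of 12311 genes at or above the median. For AXIN2 222696_at they were TMEM37 (0.979), AP4S1 (0.969) and VPS33A (0.968). The 8 arrays are 4 pairs, each from 1 line, and the values are a description only.

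The rest of the pathway, listed by role, was read through 109 of 116 genes, each by its brightest probe set. In SP against MP cells 0 of the 109 were called, as were 0% of all probe sets. Of the 109, 52 had a mean log2 ratio above 0 and the median was 0.00. At an unadjusted limma p under 0.05, 5 passed (CTNNA2, RSPO3, WNT9A, TRABD2A and SP5), and 2136 of all 54613 probe sets did. CTNNA2 and SP5 were faint, with mean signals of 2.90 and 3.11. The largest RSPO3 ratio, 3.33 in H1650, lay between faint signals of 4.77 in SP and 1.44 in MP cells. Between lines 75 of 109 (68.8%) were called, against 51.7% of the brightest probe sets of all genes, a comparison not matched for signal. Of the 75, H460 was lowest in 34, H1650 in 16, H1975 in 15 and A549 in 10. Over all 22102 called probe sets, not only the brightest of each gene, the shares were 29.6%, 25.2%, 26% and 19.2% in the same order. By role, with the same background, the number called was 5 of 6 adherens junction partners, 11 of 18 members of the destruction complex and Dishevelled group, 11 of 23 ligands and secretion factors, 11 of 13 nuclear partners, 14 of 16 receptors, 10 of 18 inhibitors and 13 of 15 textbook targets.

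The junction partners of beta-catenin had a median range of line means of 3.56 on the log2 scale, above that of each of the other roles. CDH1 had line means of 12.17 in A549, 13.68 in H1650, 7.85 in H1975 and 1.12 in H460, and CDH3, the gene for P-cadherin, had 3.30, 12.95, 10.11 and 1.98 in the same order. CDH2, which encodes N-cadherin, was highest in A549 at 9.17, against 5.42 in H1650, 5.21 in H1975 and 5.01 in H460. The brightest CTNNB1 probe set differed by 0.62 between the same lines on the log2 scale. In the nucleus, the co-repressor genes TLE1 and TLE2 and the TCF family gene TCF7L1 were lowest in H460, where TLE1 was 7.54 against 11.54 in A549, 11.48 in H1650 and 11.64 in H1975.

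Genes for ligands, inhibitors and targets split the lines in several ways. RSPO3, which encodes a ligand of the LGR receptors, had line means of 12.41 in A549 and 12.21 in H460, against 3.11 in H1650 and 4.83 in H1975. WNT7B was 8.86 in A549 and 8.67 in H1650, against 5.27 in H1975 and 2.44 in H460, and WNT5A, best known for signaling without beta-catenin, was lowest in H1975 at 3.50, with 8.41 in A549, 8.81 in H1650 and 9.52 in H460. Among inhibitors, SFRP1 was 10.32 in A549 and between 5.30 and 5.94 in the other 3 lines, and DKK3 was 10.80 in A549, 8.07 in H1650, 5.23 in H1975 and 7.29 in H460. Among textbook targets, MMP7 was 12.41 in A549 and between 5.37 and 6.35 elsewhere, and NRCAM was 12.95 in A549 and 12.74 in H460, against 3.22 in H1650 and 3.88 in H1975. The genes of the wider list named here and in the paragraph before were picked in each role for the largest ranges. Only genes at or above the median signal and called by the F test could be picked, so their calls and large ranges follow from that choice.

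**Figure D4:**
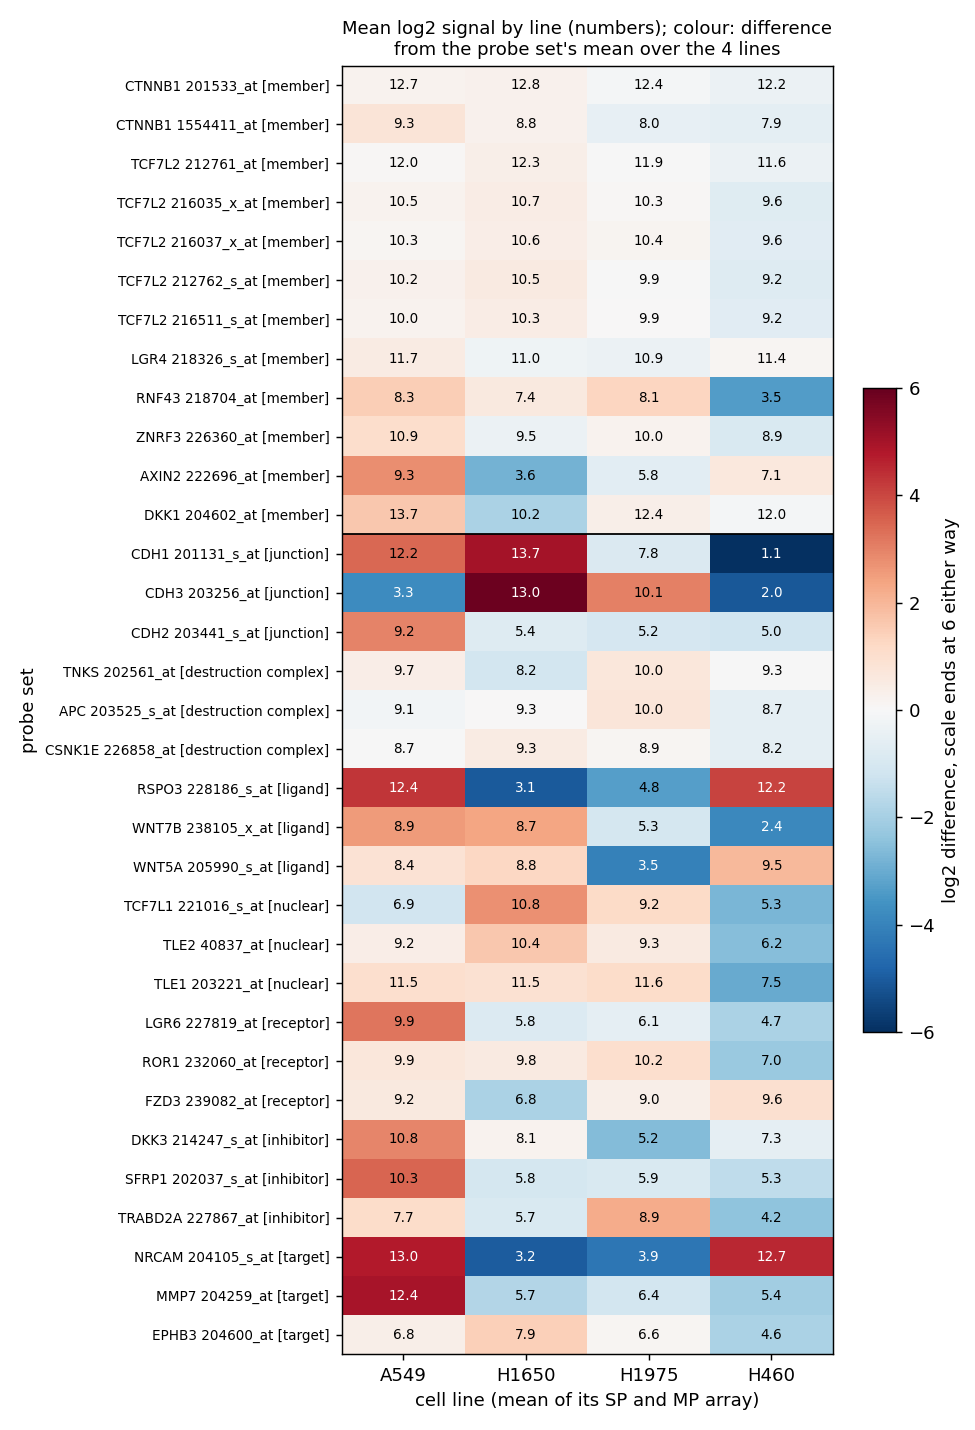
Mean log2 MAS5 signal of each line (numbers in the cells, mean of 1 SP and 1 MP array) for the 12 called member probe sets above the black line and 21 named genes of the wider pathway below it, with probe sets on the vertical and lines on the horizontal axis. Colour is the difference from the mean over the 4 lines of that probe set, red above and blue below on a log2 scale ending at 6, and levels of different probe sets are not comparable. H460 has the lowest number in 9 of the 12 member rows. The ranges of CDH1, CDH3, RSPO3, NRCAM, MMP7, WNT7B and WNT5A exceed those of all member probe sets.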

How the data were processed

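RNA of SP and MP cells of 4 lines was hybridised to 8 arrays. The deposited values are log2 signals that the authors made with MAS5 (GCOS 1.4, per the labels), and they were used as given. On each array the mean linear signal after trimming 2% at either end was 500.1, so the arrays share a scale, and genes were not centred. No detection calls were used. Probe sets were named from the platform annotation, which gave 41091 of them 1 gene symbol, 1801 several and 11721 none, and 62 control probe sets were left out. SP and MP cells were compared with limma 3.58.1 in R 4.3.3 (lmFit, then eBayes with a trend, no filter) in a model with cell line and population over all 54613 probe sets, with Benjamini-Hochberg adjustment at 0.05. The same fit gave the F test over lines and the 6 pairs of lines, and a fit of the 4 differences set 1 line against the other 3. The line pairs the arrays: within a line, the SP array's deviation from the SP mean and the MP array's from the MP mean correlated at r = 0.573 in A549, 0.612 in H1650, 0.638 in H1975 and 0.645 in H460. Scripts were tested on simulated data. The number of arrays limits the precision. The 9 members with a probe set are described, in full for the brightest probe set of each, for every CTNNB1 probe set and for others that passed a test or opposed the brightest by more than 1, with up to 3 genes per role of the wider list. The members, the wider list and the markers were chosen with earlier results of these data known. As alternatives, linear signals were floored at 32 or had 16 added to them before log2, and others were quantile normalization, a filter at the median signal, no variance trend, the brightest probe set per gene, no cell line term, and leaving out lines or arrays.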

Additional observations from a re-analysis of the deposited data

Results flagged for a closer look

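The RNF43 probe set 218704_at stood out among the MP arrays, where H460 had a log2 signal of 2.11 and the other 3 lines lay between 7.78 and 8.22. The gap from H460 to the nearest line took up 0.929 of the whole range, above Dixon's critical value for 4 samples at the 95% level. A total of 48 groups of 4 values were examined in this way, over 16 named probe sets, and chance alone marks about 1 group in 20.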

How the results depend on the processing

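Of the alternatives tried, none called a member probe set in SP against MP cells, including the fit with no replicate block (0 called), in which the pairing by cell line was dropped, and the fits without 1 line (0 to 0). Without H1650 the fit called 3 probe sets of the whole array and no member. The number of member probe sets called between lines was 12, against 4 without the variance trend, 7 of 9 with only the brightest probe set per gene (fewer probe sets were tested), and 9 to 13 when 1 array was left out. The calls of TCF7L2 216037_x_at, LGR4 and DKK1 were lost with the floor of 32. All of their own signals lie above the floor, and their differences between lines stayed at 1.06, 0.83 and 3.51. The loss therefore came with the change in other probe sets, which share the variance fit and the adjustment, and which part of it mattered was not tested. The calls over pairs of lines were 37, against 24 with the floor, 11 without the trend, and 20 (without the H460 MP array) to 41 when 1 array was left out, with 21 without the H460 SP array. The wider list had 75 calls between lines, against 47 without the trend and 60 to 70 when 1 array was left out, and its SP against MP count was 0 to 0 without 1 line. For the H1650 ratio against the other 3 lines the floor raised the count of members from 0 to 3 (LEF1 221558_s_at, NKD1 229481_at and NKD1 232203_at), in each of which all 6 arrays of the other lines lie under the floor and so have no spread by construction. With the floor 941 of all probe sets were called in that contrast. The range between CTNNB1 probe sets was 0.60, and 0.21 to 1.14 without 1 line. Of 94 alternative values of the counts and of the CTNNB1 range 84 stayed within 1.5 times. Many of these compare a count of 0 with another count of 0, so their agreement says little about stability. Of 48 alternative ranges between lines of single probe sets, 3 lost their call and 41 stayed within 1.5 times. Of 112 alternative mean SP to MP ratios, none of which passed a test, 68 stayed within 1.5 times and 9 changed sign, among them RNF43 (-0.11) and AXIN2 222696_at (0.08) with the floor and DKK1 (0.11) without H1650. With 1 pair per line a line-specific difference in ratio has no replicate, and the ratios between faint signals of LEF1, NKD1 and H460 RNF43 depend on how such signals are floored.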
